A study of Mus musculus with 12 samples.

Results

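The uptake of glucose and its breakdown to lactate were followed through 10 genes on arrays of mouse embryonic fibroblasts: the transporter gene Slc2a1 and the enzyme genes Hk1, Hk2, Pfkl, Pfkp, Aldoa, Pgk1, Eno1, Eno2 and Ldha. Every probe set (a group of short probes for 1 transcript) whose platform annotation gave exactly 1 of these symbols was taken. This gave 19 probe sets of the 22626 tested, for 9 of the 10 genes. Slc2a1 and Pgk1 had 3 each, Hk1, Pfkl and Pfkp 2 each, Aldoa 4, and Hk2, Eno2 and Ldha 1 each. The annotation paired no probe set with Eno1 alone, and Eno1 was not analysed here. Unless another probe set is named, a gene is described by its brightest probe set, as averaged over the arrays.

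The cells were primary fibroblasts grown from HtrA2 knockout or wild-type mice and used at passage 4. They were exposed for 4 h to 1 µM of rotenone, which blocks complex I of the respiratory chain, or to vehicle. The 12 arrays fall into 4 groups of 3: knockout with rotenone, knockout with vehicle, wild type with rotenone and wild type with vehicle. HtrA2 (also called Omi) is a protease found between the 2 mitochondrial membranes. The labels name no other allele or agent and do not say which part of the gene the knockout lacks. They also do not say whether replicates are separate embryos or cultures, so the p-values cover the spread between these arrays, which could be technical.

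Glycolysis splits glucose into pyruvate in the cytosol and yields ATP without oxygen. Cells whose respiratory chain is blocked are known to depend on it, and lactate dehydrogenase then turns pyruvate into lactate and returns the NAD that the pathway consumes. Glucose enters fibroblasts mainly through the transporter encoded by Slc2a1 (GLUT1). Hexokinases (Hk1, Hk2) trap it as glucose 6-phosphate, and phosphofructokinases (Pfkl, Pfkp) carry out the committed step. Aldolase A (Aldoa) then cleaves the sugar, phosphoglycerate kinase (Pgk1) makes ATP, enolases (Eno1, Eno2) form phosphoenolpyruvate, and Ldha encodes the main subunit of lactate dehydrogenase outside the heart. Several of these genes are textbook targets of hypoxia-inducible factor, which binds a core of A or G followed by CGTG, and of E-box factors such as MYC, which bind CACGTG.

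The promoters of the 3 genes that rose with rotenone (Slc2a1, Hk2 and Eno2) and of 2 of the 6 that did not pass the test (Pgk1 and Ldha) are printed here as examples from both sides of the treatment comparison. This split comes from the fit that takes the replicate number into account, described below. Each line runs from 250 bases before to 50 bases after the RefSeq start, on the gene's strand, from assembly GRCm38.p6; capitals mark ACGTG on either strand, with overlapping matches counted once. The windows lie at chr4:119108495-119108794 (plus strand) for Slc2a1, chr6:82774405-82774704 (minus strand) for Hk2, chr6:124769624-124769923 (minus strand) for Eno2, chrX:106186850-106187149 (plus strand) for Pgk1 and chr7:46845554-46845853 (plus strand) for the first listed start of Ldha.
Slc2a1: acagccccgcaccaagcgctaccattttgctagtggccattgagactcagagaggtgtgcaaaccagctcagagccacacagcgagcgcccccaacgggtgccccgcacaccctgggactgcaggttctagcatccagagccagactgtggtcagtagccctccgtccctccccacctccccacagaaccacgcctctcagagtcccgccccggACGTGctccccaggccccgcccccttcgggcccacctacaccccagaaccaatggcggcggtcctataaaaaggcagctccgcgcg
Hk2: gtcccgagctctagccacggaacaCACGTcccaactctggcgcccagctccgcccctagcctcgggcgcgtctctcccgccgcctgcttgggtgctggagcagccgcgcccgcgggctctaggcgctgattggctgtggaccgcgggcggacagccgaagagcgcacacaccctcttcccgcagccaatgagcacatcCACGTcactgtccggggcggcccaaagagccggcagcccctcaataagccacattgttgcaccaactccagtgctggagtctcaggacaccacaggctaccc
Eno2: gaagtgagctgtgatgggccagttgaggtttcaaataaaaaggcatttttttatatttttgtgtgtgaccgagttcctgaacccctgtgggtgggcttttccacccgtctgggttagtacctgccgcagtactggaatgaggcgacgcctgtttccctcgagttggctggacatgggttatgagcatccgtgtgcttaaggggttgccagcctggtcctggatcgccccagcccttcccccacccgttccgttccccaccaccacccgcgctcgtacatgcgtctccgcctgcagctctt
Pgk1: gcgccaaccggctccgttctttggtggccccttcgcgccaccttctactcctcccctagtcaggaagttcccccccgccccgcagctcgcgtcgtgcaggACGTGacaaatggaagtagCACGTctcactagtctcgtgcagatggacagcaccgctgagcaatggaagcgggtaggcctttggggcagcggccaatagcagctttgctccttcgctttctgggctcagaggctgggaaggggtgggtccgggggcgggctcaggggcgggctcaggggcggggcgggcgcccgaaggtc
Ldha: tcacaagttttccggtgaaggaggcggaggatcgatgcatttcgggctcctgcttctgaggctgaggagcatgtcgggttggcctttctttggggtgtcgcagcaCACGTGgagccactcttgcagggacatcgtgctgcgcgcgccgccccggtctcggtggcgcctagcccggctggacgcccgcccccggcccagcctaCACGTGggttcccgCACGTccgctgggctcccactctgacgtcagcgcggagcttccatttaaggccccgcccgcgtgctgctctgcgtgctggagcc
The letters ACGTG occurred 1 time in the Slc2a1 window, 2 times in that of Hk2, 2 times in that of Pgk1, 3 times in that of Ldha and 0 times in that of Eno2. Of the 3 matches of Ldha, 2 are part of CACGTG, and no other window shown holds CACGTG. Of 32851 mouse promoter windows of the same length in the RefSeq table, 19.6% held ACGTG at least 1 time, 2.69% at least 2 times and 0.414% at least 3 times, and 7.15% held CACGTG. All 10 genes matched this table with 16 windows, and 7 of these windows held ACGTG. The 2 Aldoa windows among them overlap and share the same match. Among the windows not printed, those of Pfkl and Pfkp, the second start of Ldha and the 3 of Eno1 held 0, the 2 starts of Hk1 held 2 and 0, and the 3 of Aldoa held 1, 1 and 0, so members that did not pass the test had windows with and without the letters. Only the ACGTG form of the core was searched. The GCGTG form was not counted, and it occurs in windows given as 0, such as that of Pfkp. The matches are a description of the letters and were not tested for binding.

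Values are log2 expression values, made by the authors with RMA, so a difference of 1 is a doubling. The 5 fibroblast genes Col1a1, Col1a2, Col3a1, Vim and Fn1, for collagens, vimentin and fibronectin, had mean levels of 12.85 to 13.99, and all 10 listed fibroblast markers exceeded 7.01, the 40th percentile of the probe sets tested. The level of Htra2 (probe set 1460495_s_at) was 7.77 ± 0.09 and 7.67 ± 0.17 in knockout cells with rotenone and vehicle, against 9.08 ± 0.06 and 9.06 ± 0.24 in wild-type cells with rotenone and vehicle (SD, n = 3 each). For the wild-type arrays with rotenone, the labels conflict: the titles say wild type and the genotype field says knockout. The titles were followed, and Htra2 stood at the wild-type level on these arrays. A second Htra2 probe set, 1436269_s_at, was not lower in knockout cells (8.29 with rotenone and 8.38 with vehicle, against 8.06 and 7.98 in wild-type cells). Its arrays did not overlap between genotypes with rotenone and overlapped with vehicle, and it did not pass the test at either treatment (adjusted p 0.838 and 1 without the block). The 4 arrays numbered 3, 1 in each group, stood apart: the first principal component held 44.7% of the variance, with scores of 22.6 to 30.9 for number 3 and -20.1 to -5.69 for numbers 1 and 2. Arrays of the same number deviated together, so results with the number as a block (each array compared within its own number) are given beside those without it wherever a call differs.

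With rotenone the transcripts of the transporter Slc2a1, the hexokinase Hk2 and the enolase Eno2 rose, a call made with the block. Those of the other 6 genes did not pass the test. Without the block, the fit set as the main one, only Eno2 passed by its brightest probe set. Averaged over genotypes, Eno2 rose by 0.82 on the log2 scale, 1.77-fold, Hk2 by 0.55, 1.46-fold, and Slc2a1 by 0.53, 1.45-fold. With the number as a block, 5 of the 19 probe sets (26.3%) passed an adjusted p of 0.05 in limma, all higher with rotenone, against 2.46% of all probe sets (1.33% higher and 1.13% lower). These 5 belong to 3 of the 9 genes. Without the block 2 of the 19 (10.5%) passed, 1 each of Slc2a1 and Eno2, against 0.217% of all probe sets (0.102% higher and 0.115% lower). Leaving out any 1 of 8 of the 12 arrays took this unblocked count to 0.

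Slc2a1, the entry point of glucose, had levels of 10.40, 10.31 and 10.59 in knockout cells with rotenone (numbers 1, 2 and 3), against 9.94, 9.86 and 10.03 in knockout cells with vehicle. In wild-type cells it had 10.75, 10.33 and 10.81 with rotenone, against 10.15, 9.87 and 10.13 with vehicle. Every rotenone array was above every vehicle array. The 6 differences between arrays of the same genotype and number ran from 0.45 to 0.68. The mean difference was 0.53 (SE 0.07 with the block and 0.10 without it), with an adjusted p of 0.000526 with the block and 0.0518 without it in limma. The 95% interval with the block was 0.39 to 0.68.

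The other 2 probe sets of Slc2a1 gave the same picture. Probe set 1434773_a_at was 0.58 higher with rotenone and passed in both fits (adjusted p 0.000635 with the block, 0.0415 without). Probe set 1426600_at was 0.46 higher and passed with the block only (adjusted p 0.00231, against 0.0614 without). The rotenone and vehicle arrays did not overlap in either.

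Hk2, a hexokinase known to be inducible by insulin and hypoxia, had 10.65, 10.99 and 10.22 in knockout cells with rotenone, against 10.23, 10.22 and 9.95 in knockout cells with vehicle. In wild-type cells it had 10.64, 10.86 and 10.86 with rotenone, against 10.14, 10.23 and 10.16 with vehicle. All 6 pairs were higher with rotenone, by 0.27 to 0.77, and 1 array made the groups overlap: knockout with rotenone number 3 lay just below the highest vehicle array. The mean difference of 0.55 (SE 0.09 with the block) had an adjusted p of 0.00493 with the block and 0.1 without it, so the call rests on the block. Hk1, a hexokinase expressed in most tissues that can bind mitochondria, as Hk2 can, had a mean difference of 0.03 with a 95% interval of -0.10 to 0.17 (with the block).

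Eno2, the enolase best known as a neuronal marker, had 7.69, 7.90 and 7.35 in knockout cells with rotenone, against 6.67, 7.06 and 6.57 in knockout cells with vehicle. In wild-type cells it had 7.58, 7.87 and 7.17 with rotenone, against 6.74, 6.82 and 6.77 with vehicle. Every rotenone array exceeded every vehicle array. Its mean difference of 0.82 (SE 0.08 with the block, 0.13 without) passed in both fits, with adjusted p-values of 5.77e-05 with the block and 0.0395 without. The call without the block was lost when any of 9 of the 12 arrays was left out (adjusted p 0.0697 to 0.118). Eno2 was dim: its vehicle means lay under the 40th percentile (7.01), a range in which RMA values compress differences. Of 10 neural markers measured, 3 lay above that percentile, and the mean level of the 10 was 5.84 to 6.0 over the arrays. None passed the test with rotenone in either fit (median difference 0.02). Of all probe sets, 0.217% passed without the block and 2.46% with it.

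**Figure D1:**
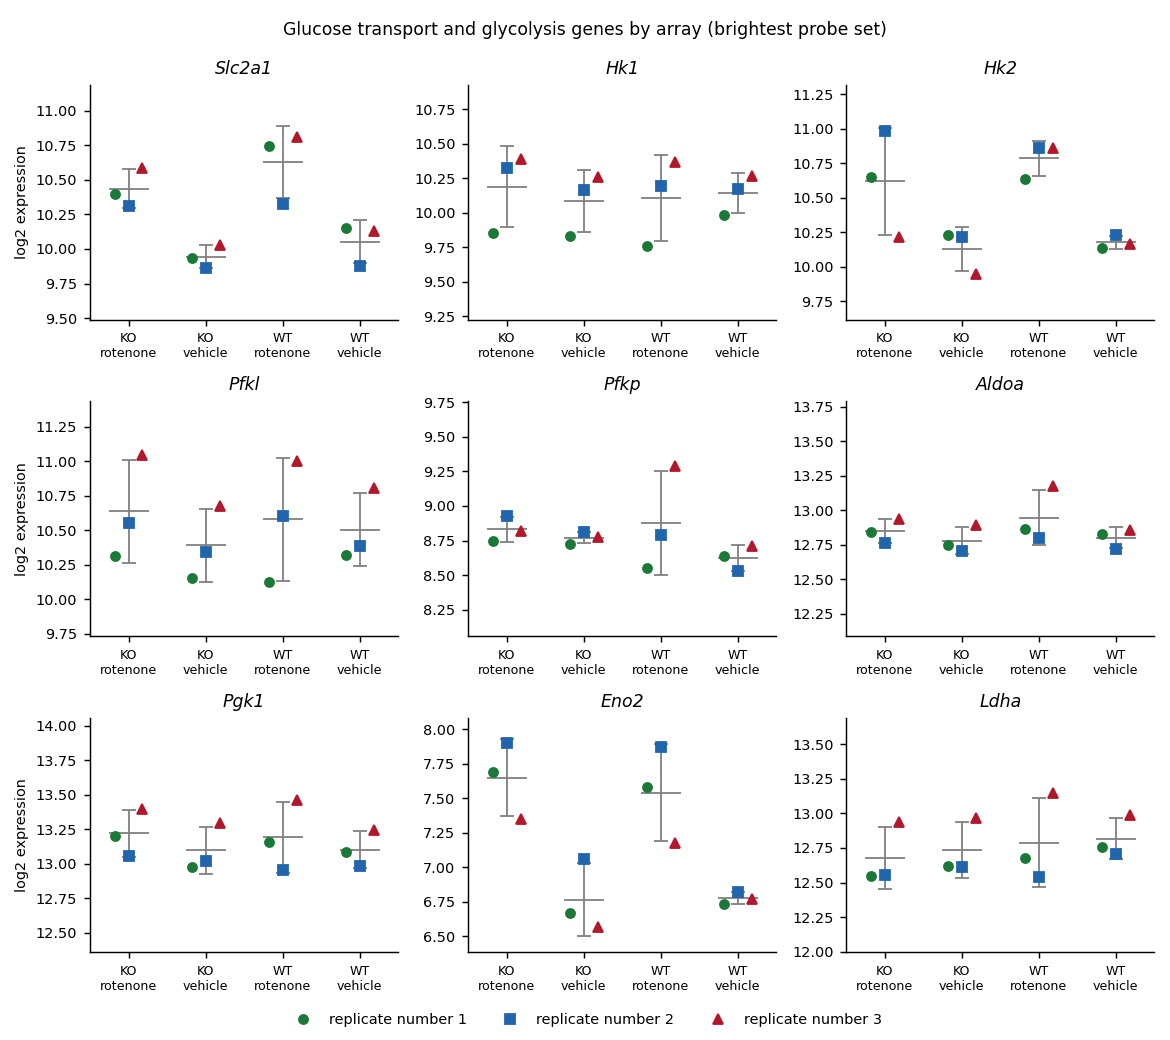
Log2 level of each of the 9 genes (brightest probe set) on each of the 12 arrays, with knockout rotenone, knockout vehicle, wild-type rotenone and wild-type vehicle from left to right; each point is 1 array marked by its replicate number, with the group mean as a line and its SD as whiskers (n = 3). In Slc2a1 and Eno2 all rotenone arrays sit above all vehicle arrays, and in Hk2 all but knockout rotenone number 3 (10.22) do, with Eno2 averaging 7.65 and 7.54 in the rotenone groups against 6.77 and 6.78 in the vehicle groups.

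The remaining enzymes did not pass the test in either fit. Mean differences with rotenone were 0.16 for both phosphofructokinases (Pfkl, adjusted p 0.296, and Pfkp, 0.458, with the block) and 0.11 for both Aldoa (0.462) and Pgk1 (0.47). Ldha, at the end of the pathway, had a mean difference of -0.04 with a 95% interval of -0.18 to 0.10. Within pairs Pfkp ran from -0.09 to 0.58 and Ldha from -0.17 to 0.16, and in both the highest value came from the wild-type arrays numbered 3. The brightest Aldoa probe set was 0.04 to 0.32 higher with rotenone in its 6 pairs, while each of the other 3 was higher in 4 of 6. The second probe sets of Pfkp and Hk1 were each higher in only 2 of 6 pairs. The intervals of the 6 genes, all with the block, reached no higher than 0.35 (Pfkp), so doublings of these transcripts lie outside them. Over the 19 probe sets the differences ran from -0.05 to 0.82 with a median of 0.11, against a median of 0.02 over all probe sets tested.

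**Figure D2:**
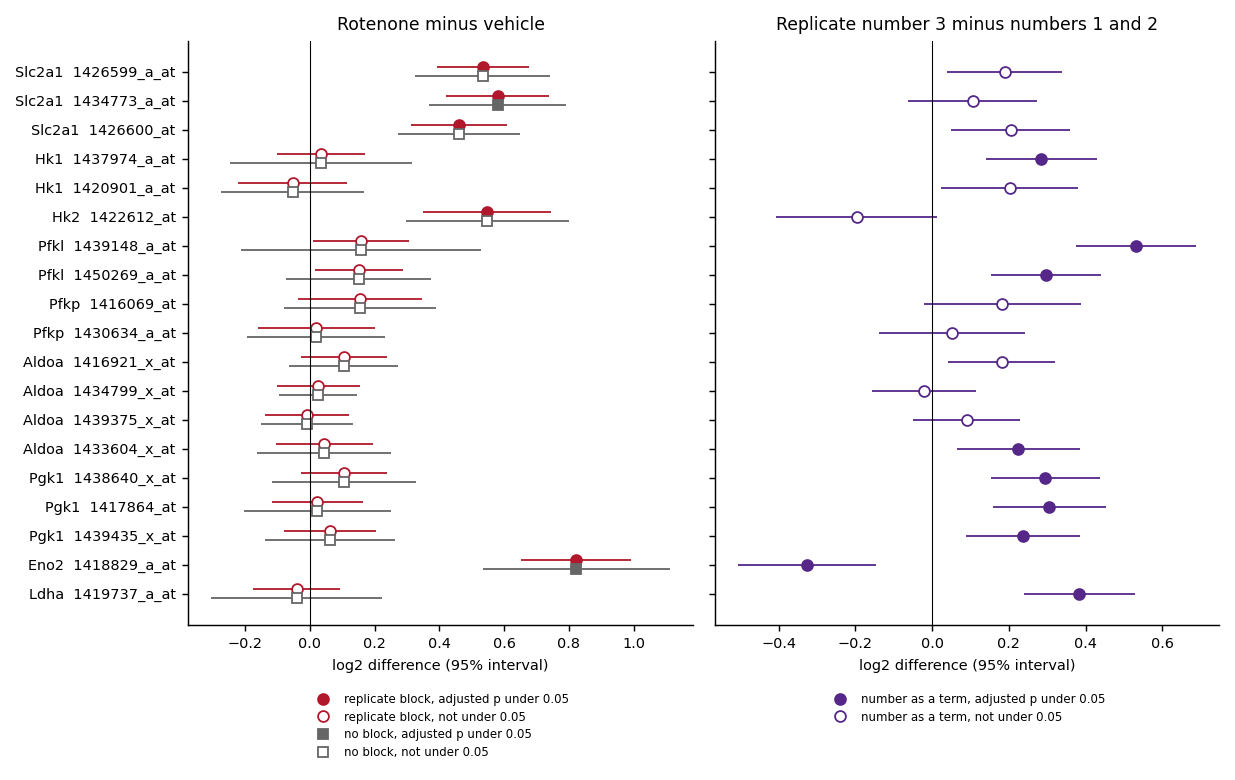
Log2 differences of the 19 probe sets with 95% intervals, rotenone minus vehicle (left, mean of both genotypes, with and without the block) and number 3 minus numbers 1 and 2 (right); filled marks passed the test. On the left the 5 probe sets of Slc2a1, Hk2 and Eno2 lie between 0.46 and 0.82 and 2 of the other blocked intervals, both of Pfkl, exclude 0; on the right 8 filled marks lie above 0 and that of Eno2 below it.

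The rise was measured in each genotype. In knockout cells the differences between rotenone and vehicle were 0.88 for Eno2 (adjusted p 0.00212 with the block), 0.49 for Slc2a1 (0.0422) and 0.49 for Hk2 (0.183). With the block 3 of 19 probe sets (15.8%) passed in knockout cells, against 0.301% of all probe sets (0.115% higher and 0.186% lower). In wild-type cells the differences were 0.76 for Eno2 (adjusted p 0.007 with the block), 0.58 for Slc2a1 (0.0137) and 0.61 for Hk2 (0.0522). With the block 4 of 19 (21.1%) passed in wild-type cells, against 0.628% of all (0.429% higher and 0.199% lower). Without the block no member passed in either genotype, against 0.00884% of all probe sets in knockout and 0.0133% in wild-type cells. In that fit 5 of the 19 had an unadjusted p under 0.05 in each genotype. Of all 22626 probe sets, 829 did so in knockout and 986 in wild-type cells.

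The loss of HtrA2 was not accompanied by a detectable change in these transcripts or in their response. The rotenone effect in knockout minus that in wild-type cells was -0.08 for Slc2a1 (95% interval -0.37 to 0.20 with the block), -0.12 for Hk2 (-0.51 to 0.27) and 0.12 for Eno2 (-0.22 to 0.45). None of the 19 probe sets passed for this difference in either fit of limma, where 0% of all probe sets passed. An unadjusted p under 0.05 was found for 0 of the 19, against 82 of all 22626 without the block and 295 with it. The 3 arrays a group leave room for differences as large as those intervals.

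At matched treatment the members differed between genotypes by -0.19 to 0.11 with rotenone and by -0.11 to 0.15 with vehicle, knockout minus wild type. Slc2a1 was -0.19 with rotenone and -0.11 with vehicle, Hk2 -0.17 and -0.05, and Eno2 0.11 and -0.01. No member passed with rotenone (background 0.00442% of all probe sets without the block and 0.0398% with it, 0.0354% of them lower) or with vehicle (0.00442% and 0.0177%), and none had an unadjusted p under 0.05 in either fit. Of all 22626 probe sets, 1260 had such a p with rotenone without the block and 2938 with it. With vehicle these counts were 235 and 667. Group means were 10.43 ± 0.14 for Slc2a1 in knockout cells with rotenone and 9.94 ± 0.08 with vehicle, against 10.63 ± 0.26 and 10.05 ± 0.16 in wild-type cells (SD, n = 3 each). The genotypes' arrays of Slc2a1 overlapped at each treatment.

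Hk2 lies on the same chromosome as Htra2, and in the RefSeq gene order 4 protein-coding genes stand between them: Sema4f, M1ap, Dok1 and Loxl3. In vehicle the level of Loxl3, of the lysyl oxidase family, was 10.02 ± 0.10 in knockout cells, against 11.04 ± 0.05 in wild-type cells (SD, n = 3 each), a difference of -1.02 with an adjusted p of 0.0071 with the block and 0.16 without. The genes nearer to Hk2 differed less: -0.16 for Dok1, -0.03 for M1ap and -0.00 for Sema4f, and -0.13 for Pole4 on the other side of Hk2. The genotype difference of Hk2 itself in vehicle was -0.05. Dok1, an adaptor of tyrosine kinase signalling, fell by 0.49 with rotenone in the mean of both genotypes (adjusted p 0.014 without the block).

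The second pattern in these genes ran by replicate number. Over the 4 groups combined, 4 of the 9 genes were higher in number 3 than in numbers 1 and 2, 1 was lower and 4 did not pass. With the group accounted for, 9 of 19 probe sets (47.4%) differed, 8 higher and 1 lower, against 23.9% of all probe sets (12.6% higher and 11.3% lower). By gene, Pfkl, Ldha, Pgk1 and Hk1 were higher in number 3 and Eno2 was lower. The median over the 19 probe sets was 0.20, against -0.04 over all probe sets.

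Pfkl, which encodes the liver-type phosphofructokinase, had 11.05, 10.68, 11.01 and 10.81 on the arrays numbered 3 (knockout rotenone, knockout vehicle, wild-type rotenone and wild-type vehicle), against 10.12 to 10.32 for number 1 and 10.35 to 10.61 for number 2. No array of numbers 1 and 2 reached those of number 3. The difference was 0.53 (SE 0.07, adjusted p 0.000102 in limma). Its second probe set, 1450269_a_at, was 0.30 higher (adjusted p 0.0049).

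Ldha had 12.94, 12.97, 13.15 and 12.99 on the arrays numbered 3 in the same order, against 12.55 to 12.76 for number 1 and 12.54 to 12.71 for number 2. The number 3 arrays did not overlap with the rest, and the difference was 0.38 (adjusted p 0.000732). Pgk1 had 13.40, 13.29, 13.46 and 13.24 in number 3, against 12.97 to 13.20 in number 1 and 12.95 to 13.06 in number 2. These too did not overlap; the difference was 0.29 (adjusted p 0.00478), and the other 2 probe sets of Pgk1 were 0.31 and 0.24 higher (0.00486 and 0.0228).

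Hk1 followed another course. It averaged 10.32 ± 0.07 in number 3, against 9.86 ± 0.09 in number 1 and 10.22 ± 0.08 in number 2 (SD, n = 4 each). The difference of 0.28 between number 3 and the other two (adjusted p 0.00677) thus came with low arrays of number 1, and numbers 3 and 2 overlapped. Its second probe set, 1420901_a_at, averaged 8.77 in number 3, 8.50 in number 1 and 8.64 in number 2, and did not pass. No member passed between number 2 and number 1, where 0.256% of all probe sets did.

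Eno2 was the member that fell in number 3, by 0.33 (SE 0.08, adjusted p 0.0111). It averaged 6.97 ± 0.36 in number 3, against 7.17 ± 0.54 in number 1 and 7.41 ± 0.55 in number 2, where each SD spans both treatments. With rotenone, number 3 was lowest in each genotype (7.35 in knockout and 7.17 in wild-type cells). With vehicle it was lowest in knockout cells (6.57) but lay between numbers 1 and 2 in wild-type cells (6.77). The call by number was lost without wild-type rotenone number 3 (adjusted p 0.0512) or knockout rotenone number 3 (0.0501). Slc2a1 at 0.19 (adjusted p 0.0661), Aldoa at 0.18 (0.0588), Pfkp at 0.18 (0.181) and Hk2 at -0.20 (0.161) did not pass, although 1 of the 4 Aldoa probe sets, 1433604_x_at, was 0.23 higher and did (0.0406).

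Marker genes of proliferation and of cell types were also compared by number, again beside 23.9% of all probe sets that differed. All 7 measured proliferation markers were higher, by 1.23 to 1.55, with mean levels of 9.93 to 10.09 in number 3, against 8.21 to 8.86 in numbers 1 and 2. Of 7 measured leukocyte markers 5 were higher and none lower, with mean levels of 6.98 to 7.06 in number 3, against 6.36 to 6.52 in numbers 1 and 2. Ptprc, the defining leukocyte antigen CD45, was dim at a mean of 5.23 and did not pass (0.13, adjusted p 0.191), and Lyz2, a lysozyme, was 2.26 higher. Of 10 fibroblast markers 2 were higher and 3 lower, of 6 epithelial markers 2 were higher, of 8 muscle markers 2 were higher, and of 10 neural markers 1 was higher and 1 lower. Their part in the levels of the glycolytic genes was not tested; in bulk RNA a change in the share of cells of a type and a change in RNA per cell cannot be told apart.

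Because number 3 stood apart, the rotenone response was also taken without it. In numbers 1 and 2 alone, Eno2 was 0.94 higher with rotenone (adjusted p 9.43e-09 with the block), Hk2 0.58 higher (4.69e-05) and Slc2a1 0.49 higher (0.00049), and 5 of the 19 probe sets passed, with 1054 passing of all. With number 1 or number 2 left out instead, Slc2a1 and Eno2 still passed with the block (adjusted p 0.0229 to 0.0398), while Hk2 did not (0.111 and 0.177). The rotenone effect in number 3 minus that in numbers 1 and 2 was -0.34 for Eno2 (95% interval -0.66 to -0.02, unadjusted p 0.0376, adjusted p 0.998), 0.13 for Slc2a1 and -0.10 for Hk2. No member passed this test, which was added after the values were seen, and 0.00442% of all probe sets did.

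**Figure D3:**
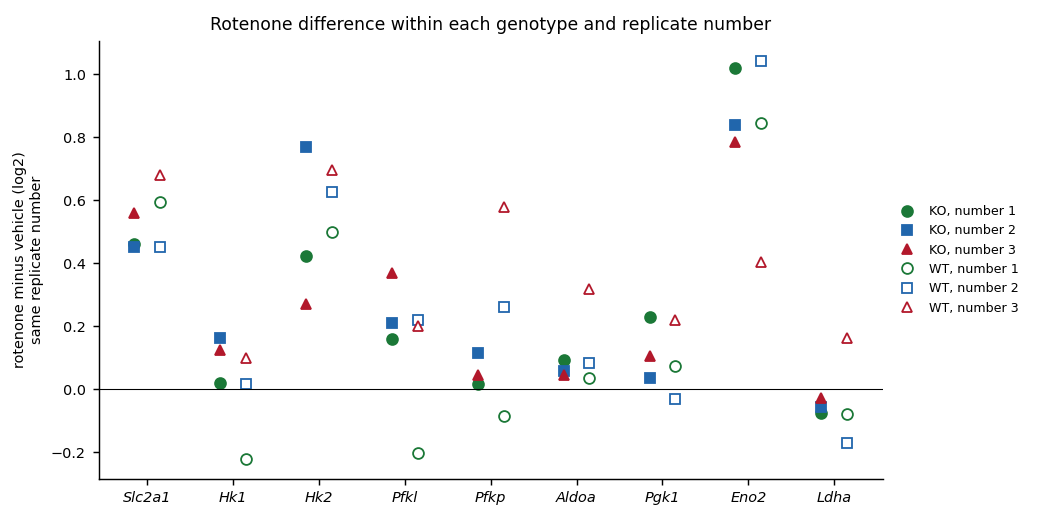
Log2 difference between rotenone and vehicle arrays of the same genotype and replicate number, for each of the 9 genes; each point is 1 of 6 pairs. All 6 points are above 0 for Slc2a1 (0.45 to 0.68), Hk2 (0.27 to 0.77) and Eno2, whose pair of wild-type arrays numbered 3 has the smallest difference, 0.41.

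The genes of the wider pathway were compared with rotenone as lists, beside the counts over all 12393 genes. Of 15 measured genes for other glycolytic enzymes (21 listed), none rose and 1 fell with the block: Bpgm, which makes 2,3-bisphosphoglycerate, at -0.33 (adjusted p 0.045 with the block, 0.22 without). The median of this list was 0.04, against 0.03 over all 12393 genes, of which 190 rose and 116 fell with the block. Of 9 measured genes for other glucose transporters (11 listed), none rose and 1 fell, Slc2a10, a transporter of the endoplasmic reticulum and Golgi, at -0.25 (adjusted p 0.047 with the block, 0.45 without), and the list's median was 0.07. No gene passed among 11 measured for lactate and pyruvate handling (13 listed, median 0.06), 7 for the pentose phosphate pathway (8 listed, 0.05) or 15 for gluconeogenesis and glycogen (17 listed, 0.06).

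Among 10 measured regulators of glycolytic flux (15 listed, median 0.02) none rose and 1 fell. This was Txnip, an arrestin family protein known to promote the removal of GLUT1 from the cell surface. Txnip (probe set 1415996_at) had 8.06, 7.97 and 7.58 in knockout cells with rotenone, against 10.63, 10.61 and 9.87 in knockout cells with vehicle. In wild-type cells it had 7.93, 7.54 and 8.62 with rotenone, against 10.66, 10.36 and 10.07 with vehicle. Every rotenone array lay below every vehicle array, and the differences within pairs ran from -2.81 to -1.46. The mean difference was -2.41 (SE 0.17 with the block), with adjusted p-values of 0.000413 without the block and 3.04e-06 with it. The probe set 1415997_at was -1.93. Some genes of these lists that did not pass were picked after their values were seen. They were the monocarboxylate transporter gene Slc16a1 at 0.32 (adjusted p 0.066 with the block) and Pck2, mitochondrial phosphoenolpyruvate carboxykinase, at 0.25 (0.053). The others were Pdk1, a pyruvate dehydrogenase kinase, at 0.25 (0.094) and Pfkfb3, which makes fructose 2,6-bisphosphate, at 0.34 (0.16).

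**Figure D4:**
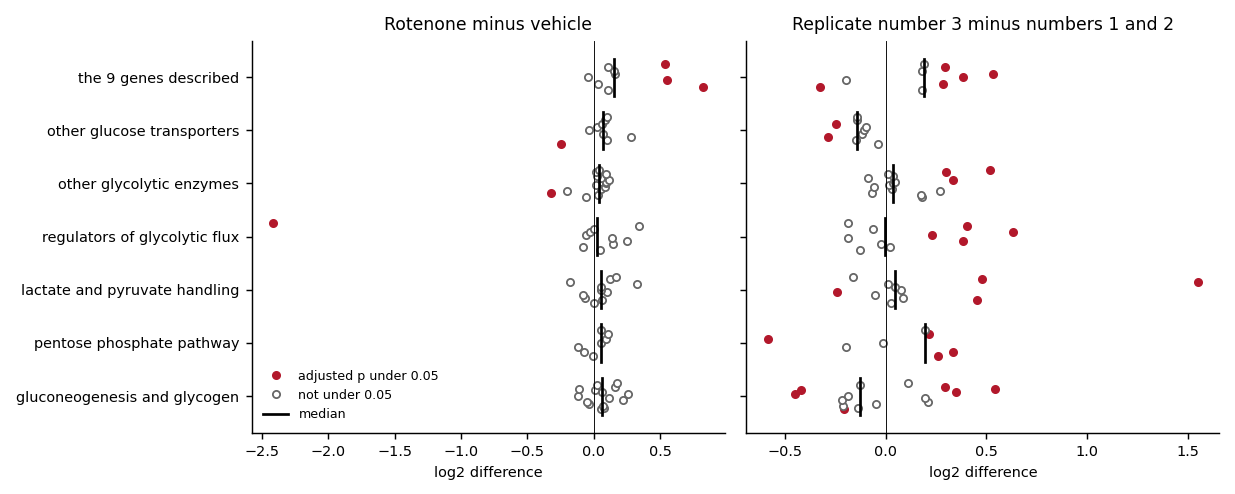
Log2 difference of each measured gene in the pathway lists, with the rotenone effect (mean of both genotypes) and the difference of number 3 from numbers 1 and 2; each point is 1 gene, filled where it passed the test in the blocked fit, and black lines are medians. Txnip lies at -2.41 in the rotenone effect, and Slc16a3 at 1.55 in the difference by number.

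Counts of the wider pathway by replicate number stand beside those over all 12393 genes, of which 1694 were higher and 1383 lower in number 3, and 23.9% of all probe sets differed. Of the 15 other glycolytic enzymes 3 were higher in number 3 and none lower: Tpi1, triosephosphate isomerase, by 0.52, Pgam1, phosphoglycerate mutase, by 0.33 and Pkm, pyruvate kinase, by 0.30. In lactate and pyruvate handling 3 of 11 were higher and 1 lower, with Slc16a3, the lactate exporter MCT4, 1.55 higher, Slc16a7 0.48 and Dlat 0.45 higher, and Pcx, pyruvate carboxylase, at -0.24. Among the flux regulators 4 of 10 were higher, namely Pdk4 (0.63), Pfkfb3 (0.40), Pdk1 (0.38) and Pdk3 (0.23). Of the 9 other glucose transporters none was higher and 2 were lower, Slc2a3 at -0.29 and Slc2a9 at -0.25.

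The pentose phosphate and gluconeogenic lists were mixed in number 3. In the pentose phosphate pathway 3 of 7 were higher, Pgd (0.33), H6pd (0.26) and Taldo1 (0.22), and Rpia was lower (-0.58). In gluconeogenesis and glycogen 3 of 15 were higher, Pygb (0.54), Pgm1 (0.35) and Pygl (0.29), and 3 lower, Pck2 (-0.45), Pgm2 (-0.42) and Fbp1 (-0.20).

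The genes whose pattern over the 12 arrays was most like that of each riser were found by the root mean square difference of mean-centred log2 values, as a description with no test. For Eno2 these were Flcn, which encodes folliculin (0.163), Atp6v1b2, a subunit of the vacuolar proton pump (0.171), and Jdp2, an AP-1 family factor (0.189), beside a standard deviation of 0.464 for Eno2 itself. For Slc2a1 they were Gla, a lysosomal galactosidase (0.151), Grpel2, a mitochondrial co-chaperone (0.153), and Tifa, an adaptor of TRAF signalling (0.155), beside 0.312 for Slc2a1. For Hk2 they were Vps26a, a retromer subunit (0.083), Rabep1, an effector of Rab5 (0.083), and Foxj3, a forkhead factor (0.103), beside 0.333 for Hk2. The arrays share their groups and numbers, so any gene that moves with both by a similar amount would score as alike.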

How the data were processed

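RNA from 12 fibroblast samples was labelled with biotin and hybridised to Affymetrix arrays, per the labels' protocols. The deposited log2 values come from RMA, run by the authors per the submitters' processing notes, which name neither version nor settings. RMA usually aligns the arrays' distributions and can mask a shift common to most transcripts. Values ran from 3.19 to 14.59, with array medians of 7.53 to 7.58. No detection calls or intensities were used here, so signal over background is unknown; precision is limited by the number of arrays.

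Of 22690 probe sets, 64 array controls were left out and 22626 tested. The platform annotation gave 1 symbol to 20380, several to 691 and none to 1555; 1 probe set that lists Hk1 beside other genes was left out by the rule for members. All tests are two-sided moderated contrasts from limma 3.58.1 under R 4.3.3 (lmFit, eBayes), from a model with a mean for each of the 4 groups. P-values were adjusted by Benjamini and Hochberg's method over the 22626 probe sets, with a threshold of 0.05. The contrast of number 3 with numbers 1 and 2 comes from the fit with group and number.

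The labels number replicates 1 to 3 in each group. All 18 same-numbered pairs of arrays correlated in their deviations from the group means (r 0.289 to 0.829), and 11 of 12 arrays had their best partner within their number. The numbers were therefore treated as pairing the arrays, though only the values and no label say so. The fit without the block was set as the main one, with the block as an alternative. No arrays held identical values (between-array r 0.982 to 0.997).

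The members and gene lists were chosen with earlier results of these data known. By rule the text names all members, list genes past the threshold in either fit (at most 8 a list), the neighbours of Hk2, the 3 genes most like each riser, Htra2 and Txnip. Outside it, 5 fibroblast markers, Ptprc and Lyz2 are named as markers, and Slc16a1, Pck2, Pdk1 and Pfkfb3 in the rotenone comparison were named after their values were seen. Promoters are RefSeq windows of GRCm38.p6, used for their letters only. The fits were tested on simulated data. Alternatives were the replicate block, leaving out arrays or numbers, leaving out probe sets with a mean under the 40th percentile, quantile normalization, median centring, an intensity trend in eBayes and the mean of all probe sets of a gene.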

Additional observations from a re-analysis of the deposited data

How the results depend on the processing

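With the replicate block, the probe sets called of all tested were 557 for rotenone (49 without it), 142 in wild type (3), 68 in knockout (2), 9 for knockout minus wild type in rotenone (1) and 4 in vehicle (1), and the members called were 5 (2), 4 (0) and 3 (0) for the rotenone comparisons; no other count of members changed with the block. Without dim probe sets, 5 of all were called in wild type. Under quantile normalization 4 members were called for rotenone, and under median centring 1. Without the block, the brightest Slc2a1 probe set passed in limma under quantile normalization and without dim probe sets (adjusted p 0.0459 in each). It did not pass under median centring or the intensity trend. Slc2a1 also passed as the mean of its probe sets (adjusted p 0.0312). With the mean of all probe sets of a gene, 27 genes were called for rotenone, 0 for either genotype comparison, and 3275 by number, 5 of them members, and the Hk1 rotenone effect turned to -0.0091; this setting tests fewer features, and the cause of the other shifts was not tested.

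Leaving out an array or a number, without the block, gave 0 to 506 calls for rotenone, 0 to 122 in wild type and 0 to 85 in knockout. Between genotypes it gave 0 to 129 in rotenone and 0 to 90 in vehicle, and 0 for the difference of effects. The contrast by number was always fitted with the number as a term, and only single arrays were left out of it. It gave 3749 to 5214 calls (5409 with all arrays). Members called were 0 to 5 for rotenone, 0 to 1 in each genotype, 0 between genotypes and 6 to 9 by number. Outside the contrast by number, the highest counts came without number 3. With the block and without number 3 the counts were 1054, 370, 343, 347 and 237 in the same order, with 5, 5 and 3 members for the rotenone comparisons. With the block and without number 1 they were 6 in wild type, 5 in knockout and 0 between genotypes in rotenone, with 4 members for rotenone, and without number 2 they were 0 in each genotype.

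Effects that changed sign when arrays were left out did not pass the test: Hk1 (-0.030 to 0.12) and Ldha (-0.13 to 0.022) with rotenone; between genotypes Hk2 (-0.35 to 0.072) and Eno2 (-0.077 to 0.27) in rotenone, and Hk2 (-0.11 to 0.046) and Eno2 (-0.16 to 0.090) in vehicle; and the differences of effects of Slc2a1 (-0.24 to 0.0075), Hk2 (-0.30 to 0.081) and Eno2 (-0.067 to 0.28). With the block, those without number 3 were -0.0045 for Hk1, 0.072 for Hk2 in rotenone, 0.039 for Hk2 and 0.086 for Eno2 in vehicle, and 0.033 for Hk2 and -0.015 for Eno2 as differences of effects, and without number 1 Eno2 was 0.018 in vehicle. Slc2a1, Hk2 and Eno2 were higher with rotenone under all settings run. Aldoa passed by number under quantile normalization (adjusted p 0.0382), median centring (0.0487) and the intensity trend (0.036). A group left with fewer arrays is assumed to vary like the others.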
